A study of Mus musculus with 30 samples.

Results

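Prss34, Mcpt8, Cpa3, Fcer1a and Gata2, a set of genes used by basophils and mast cells, were followed in sorted mouse bone marrow progenitors. The 5 genes were taken by name from a deposited table of 11383 genes, and all 5 had values in every library. RNA was sequenced from 10 groups of wild-type cells with 3 libraries each, which the titles call biological replicates without saying whether a replicate is 1 mouse or a pool. 4 groups, GMP, proNeu1, proNeu2 and GMP-MoP, came from animals given LPS, with a label of 2 days, and 6 groups, MDP, cMoP, GMP, proNeu1, proNeu2 and GMP-MoP, came from naive animals. LPS (lipopolysaccharide) is a bacterial cell wall component that mimics infection, and its dose and route, the sort gates and the age of the animals are not given in the sources used here. GMP are granulocyte-monocyte progenitors, MDP are monocyte-dendritic cell progenitors and cMoP are common monocyte progenitors. The series title places GMP-MoP between neutrophil and monocyte progenitors in expression, and proNeu1 and proNeu2 are progenitors on the neutrophil path.

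Basophils and mast cells are granule-bearing cells of allergy and of defence against parasites, and both arise from bone marrow progenitors that pass through or near the GMP gate. They bind IgE through a high-affinity receptor, and antigen that cross-links this IgE releases stored proteases and amines from their granules. GATA2 is a transcription factor needed for both lineages and for blood stem cells, so its RNA is also found in earlier progenitors. Mcpt8 and Prss34 encode serine proteases that are used as markers of mouse basophils, Cpa3 encodes a carboxypeptidase of mast cell and basophil granules, and Fcer1a encodes the IgE-binding chain of the receptor.

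The sequence upstream of the 4 effector genes is shown because these genes had their highest levels in the same group. RefSeq (GRCm38.p6) gave 300-base windows for all 5 genes, 6 windows in all since Gata2 has 2 start sites, and the 250 bases before the start site are printed here in the direction of the gene, with GATA hexamers in capitals. The stretches lie at chr17:25298144-25298393 on the plus strand for Prss34, and on the minus strand at chr14:56085198-56085447 for Mcpt8, chr3:20242182-20242431 for Cpa3 and chr1:173227230-173227479 for Fcer1a.
Prss34: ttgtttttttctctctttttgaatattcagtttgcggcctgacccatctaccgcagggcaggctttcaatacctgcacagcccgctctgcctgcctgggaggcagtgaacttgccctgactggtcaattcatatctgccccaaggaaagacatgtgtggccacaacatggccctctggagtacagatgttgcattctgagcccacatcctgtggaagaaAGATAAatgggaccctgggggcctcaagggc
Mcpt8: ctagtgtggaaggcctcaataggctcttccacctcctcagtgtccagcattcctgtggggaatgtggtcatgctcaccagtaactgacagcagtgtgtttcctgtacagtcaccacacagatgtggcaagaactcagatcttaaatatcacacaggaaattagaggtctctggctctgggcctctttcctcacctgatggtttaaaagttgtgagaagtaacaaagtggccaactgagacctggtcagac
Cpa3: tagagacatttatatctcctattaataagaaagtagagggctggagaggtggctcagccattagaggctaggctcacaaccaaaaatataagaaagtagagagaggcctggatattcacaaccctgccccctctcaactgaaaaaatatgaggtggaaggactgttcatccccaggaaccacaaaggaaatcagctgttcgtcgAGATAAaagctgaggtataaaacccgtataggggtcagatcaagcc
Fcer1a: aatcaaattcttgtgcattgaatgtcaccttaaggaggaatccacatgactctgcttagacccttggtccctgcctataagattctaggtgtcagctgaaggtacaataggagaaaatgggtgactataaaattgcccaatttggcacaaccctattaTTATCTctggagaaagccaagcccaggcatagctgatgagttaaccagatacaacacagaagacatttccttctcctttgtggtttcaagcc
The 4 GATA hexamers searched on both strands began with AGATA or TGATA and ended in A or G. The Prss34 window held AGATAA starting at base -31 from the start site, and the Cpa3 window held AGATAA starting at base -46. The Fcer1a window held TTATCT, which is AGATAA on the other strand, starting at base -92. None of the 4 hexamers was in the Mcpt8 window or in either Gata2 window, and 29.8% of 32851 windows of the same length held at least 1. RUNX hexamers (TGTGGT or TGCGGT on either strand) were in the windows of Prss34, Mcpt8, Cpa3 and Fcer1a, against 22.4% of all windows, and the STAT motif TTCNNNGAA was in none of the 6, against 8.30% of all windows. These letter matches describe the windows and do not show binding.

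Levels are FPKM as deposited, that is, read counts per kilobase of exon, scaled to the assigned reads of the library. The values could be turned back into whole reads, which gave totals of 23.6 to 41.3 M assigned reads per library. The genes lie on GRCm38 (GENCODE M21 positions) at chr17:25298394-25300165 (Prss34), chr14:56082166-56085273 (Mcpt8), chr3:20215620-20242181 (Cpa3), chr1:173221284-173227214 (Fcer1a) and chr6:88193891-88207032 (Gata2). None of the 5 shared a 31-base stretch of its transcripts with another gene, although a microRNA gene overlaps Mcpt8 and another overlaps Cpa3 on the same strand. Of the marker genes, Flt3 was highest in MDP at 199 ± 8.78 FPKM, Csf1r in cMoP and Kit in naive GMP. Camp and Elane were highest in the neutrophil groups. Some markers were not highest in their own population. Csf1r and Cx3cr1, also MDP markers, were at 68.6 and 23.6 FPKM in MDP against 123 and 30.5 FPKM in cMoP. Irf8, a cMoP marker, was at 371 FPKM in cMoP and 454 FPKM in MDP. Cd34 was at 142 FPKM in naive GMP and 299 FPKM in MDP. Fcgr3 was at 165 FPKM in naive GMP and 228 FPKM in naive proNeu1. Fcgr2b, also a GMP marker, was at 28.9 FPKM in naive GMP and 37.8 FPKM in naive proNeu2. Ly6c2, a cMoP marker, was at 2228 FPKM in cMoP and 2350 FPKM in LPS GMP-MoP. Naive GMP-MoP held Csf1r at 47.0 FPKM and Elane at 5638 FPKM.

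All 5 genes were at their highest in naive GMP and next highest in LPS GMP, and were far lower in every other group. Prss34 was at 3705, 1986 and 3349 FPKM in the 3 naive GMP libraries, Mcpt8 at 2221, 1203 and 2035 FPKM, and Cpa3 at 800, 543 and 706 FPKM. Gata2 was at 195, 138 and 174 FPKM and Fcer1a at 117, 74.2 and 147 FPKM in the same libraries. Replicate 2 of naive GMP was the lowest of the 3 libraries for each of the 5 genes, but not for the eosinophil granule gene Prg2, which was at 8777, 10924 and 10737 FPKM. These are RNA averages of sorted bulk cells, in which fewer cells of a type and less RNA per cell cannot be told apart.

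**Figure D1:**
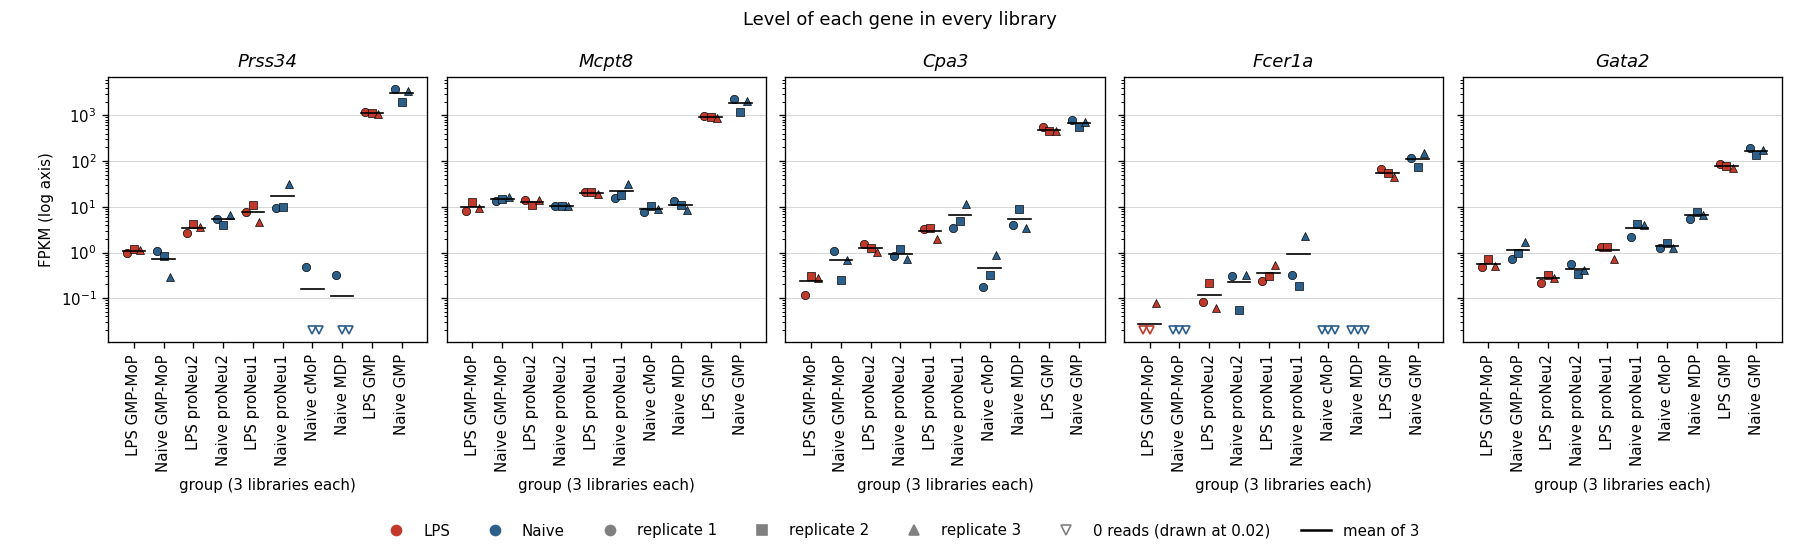
Level of each gene in every library, in FPKM on a log axis, by group, with LPS groups in red, naive groups in blue and the mean of 3 libraries as a line. The GMP libraries stand above all others for all 5 genes, Mcpt8 stays between 7.74 and 32.1 FPKM outside GMP, and open triangles mark libraries with 0 reads.

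Each naive population was compared with naive GMP, which addresses how the genes are distributed over the progenitor tree. limma was fitted to log2(FPKM + 1) of the 30 libraries together, and a gene counted as called where its Benjamini-Hochberg adjusted p lay under 0.05 and its log2 fold change was 1 or more in size. All 5 genes were called lower in MDP, against 5.42% of all genes called lower there. All 5 were also called lower in cMoP (background 7.33%), in proNeu1 (8.35%), in proNeu2 (13.2%) and in GMP-MoP (6.53%). No library of these populations overlapped a GMP library for any of the 5 genes. The 5 comparisons share the naive GMP libraries as their reference, so they are not independent of each other. Only genes of mean FPKM of 1.00 or more were analysed. Fcer1a, at a mean of 0.938 FPKM or less in each group outside GMP, passed this filter only through its GMP levels. Its lower calls were thus largely fixed by the filter, and its place in these counts is a description only.

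Prss34 encodes a tryptase-family protease, and its RNA showed the widest span. It was at 0.330, 0 and 0 FPKM in MDP and 0.480, 0 and 0 FPKM in cMoP, against 1986 FPKM or more in each naive GMP library. GMP-MoP held 1.07, 0.854 and 0.291 FPKM, proNeu2 held 5.42, 3.98 and 6.66 FPKM, and proNeu1 held 9.30, 9.89 and 31.6 FPKM. MDP, cMoP and GMP-MoP were thus at 1.07 FPKM or less and the proNeu groups were higher, with 1 proNeu1 library above the other 2. The log2 fold change against naive GMP was -11.37 ± 0.32 (SE) in MDP, -11.32 in cMoP, -10.74 in GMP-MoP, -8.86 in proNeu2 and -7.56 in proNeu1, with limma adjusted p of at most 7.35e-16 for the 5 genes in MDP, 1.75e-17 in cMoP, 3.48e-17 in GMP-MoP, 3.23e-17 in proNeu2 and 1.21e-15 in proNeu1.

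Mcpt8, the basophil protease, did not drop to 0 anywhere. It was at 13.2, 10.97 and 8.31 FPKM in MDP, 7.74, 10.3 and 8.84 FPKM in cMoP and 13.4, 14.9 and 16.1 FPKM in GMP-MoP, against 1203 FPKM or more in each naive GMP library. In proNeu2 it was at 10.2, 10.5 and 10.6 FPKM and in proNeu1 at 15.2, 18.3 and 32.1 FPKM. MDP and cMoP, where Prss34 had reads in 1 library each, therefore kept a Mcpt8 level that overlapped the level in proNeu2. The log2 fold change against naive GMP lay between -7.47 in cMoP and -6.34 in proNeu1. Mcpt8 made up 31.3% ± 0.675 of the summed FPKM of the 5 genes in naive GMP (SD, n = 3), but 85.3% ± 2.80 in GMP-MoP and 81.7% ± 2.38 in cMoP.

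**Figure D2:**
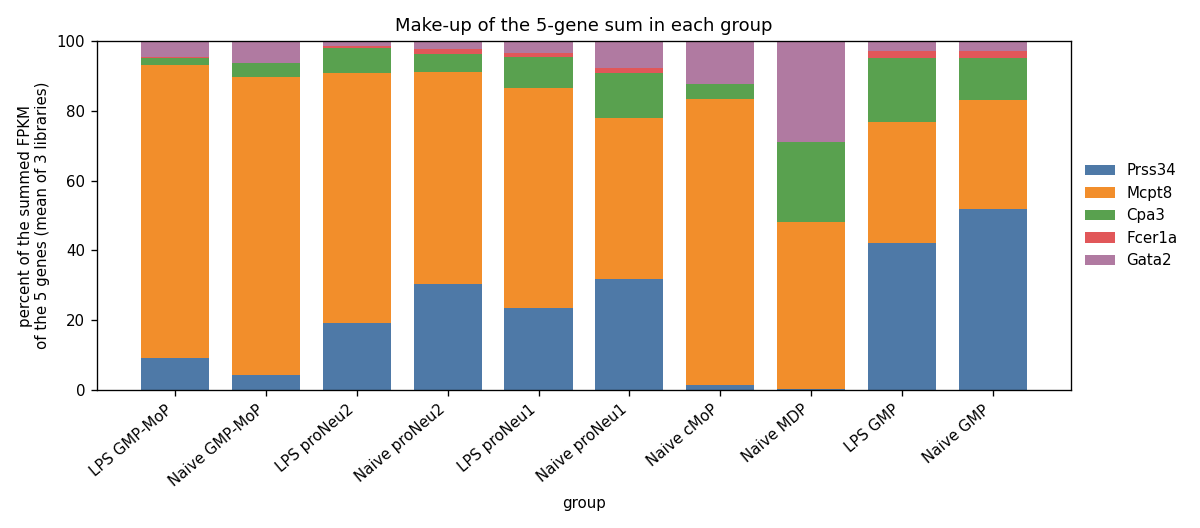
Percent of the summed FPKM of the 5 genes taken by each gene, mean of 3 libraries, for the 10 groups. Prss34 takes 42.1% in LPS GMP and 51.7% in naive GMP, while Mcpt8 takes 85.3% in naive GMP-MoP and 81.7% in naive cMoP, and Cpa3 with Gata2 takes a large part in naive MDP.

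Cpa3, the granule carboxypeptidase, was at 4.05, 8.81 and 3.51 FPKM in MDP, 0.180, 0.315 and 0.880 FPKM in cMoP and 1.10, 0.249 and 0.686 FPKM in GMP-MoP. It was at 3.45, 4.96 and 11.8 FPKM in proNeu1 and 0.850, 1.17 and 0.707 FPKM in proNeu2. MDP and proNeu1 overlapped each other and lay above the other 3 populations. Cpa3 was called lower in cMoP than in MDP (-2.09 ± 0.29, limma adjusted p = 2.09e-06) and in GMP-MoP than in MDP (-1.89 ± 0.29, limma adjusted p = 6.87e-06), comparisons in which 2 of the 5 genes were called lower, against 4.16% and 5.6% of all genes.

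Gata2 was the other gene called lower in both of these comparisons. It was at 5.43, 7.73 and 6.47 FPKM in MDP, 1.26, 1.59 and 1.26 FPKM in cMoP and 0.719, 0.968 and 1.71 FPKM in GMP-MoP, with no overlap between MDP and the other 2. The log2 fold change was -1.66 ± 0.17 in cMoP and -1.84 in GMP-MoP against MDP. MDP kept 3.87% ± 0.681 of the naive GMP level of Gata2, the highest share of the 5 genes in any population outside GMP. In proNeu1 Gata2 was at 2.18, 4.15 and 4.09 FPKM and in proNeu2 at 0.547, 0.337 and 0.417 FPKM.

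Fcer1a, the IgE-binding chain, had 0 reads in all 9 libraries of naive MDP, cMoP and GMP-MoP. Taking 3 reads over a group as the limit that a count of 0 allows, it was at least 2892-fold lower in MDP, 3615-fold lower in cMoP and 3031-fold lower in GMP-MoP than in naive GMP. These limits cover counting error only. Whether reads or fragments were counted is not given in the sources used here, and 64.6% of the recovered counts from 1 to 20 were even, as were all 13 Fcer1a counts between 2 and 58 reads. With a limit of 6 reads, chosen after seeing the data for the case that both ends were counted, Fcer1a was at least 1446-fold lower in MDP, 1808-fold lower in cMoP and 1516-fold lower in GMP-MoP than in naive GMP. It was at 0.315, 0.188 and 2.31 FPKM in proNeu1 and 0.299, 0.0565 and 0.321 FPKM in proNeu2. MDP thus held Cpa3 and Gata2 reads in every library without a read of Fcer1a.

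The median log2 fold change of the 5 genes against naive GMP was -6.80 in MDP, or -7.24 with Fcer1a set to its limit, against 0.02 for all genes tested. It was -7.47 in cMoP (-8.88 with Fcer1a at its limit) against -0.06, and -6.80 in GMP-MoP (-8.68) against -0.04. In proNeu1 it was -6.34 against -0.14 for all genes, and in proNeu2 -7.27 against -0.22.

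Between the neutrophil groups, proNeu2 was compared with proNeu1. Prss34 (-1.30 ± 0.32), Cpa3 (-1.88 ± 0.29) and Gata2 (-1.61 ± 0.17) were called lower in proNeu2 by limma, 3 of the 5 genes against 1.25% of all genes, with adjusted p of 0.00342 for Prss34. Mcpt8 had a log2 fold change of -0.93 with a limma adjusted p of 0.00178, short of the fold threshold, and Fcer1a of -0.50 (adjusted p = 0.132). Without replicate 3 of naive proNeu1, the value for Prss34 was -0.76 (limma adjusted p = 0.0412) and it was not called. GMP-MoP against proNeu1 had Prss34 (-3.18), Cpa3 (-2.09) and Gata2 (-1.06) called lower, 3 of the 5 against 3.37% of all genes. The value for Gata2 was -0.92 without naive GMP-MoP replicate 1, -0.94 without naive proNeu1 replicate 2 and -0.95 without naive proNeu1 replicate 3, each under the fold threshold, and Fcer1a was called, at -1.06, without naive proNeu1 replicate 2.

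Replicate 3 of naive proNeu1 stood above the other 2 libraries of its group for most of these genes. It held 3.30 times their mean for Prss34, 2.80 times for Cpa3, 1.92 times for Mcpt8, 9.20 times for Fcer1a (on 58 reads, against 10 and 6) and 1.29 times for Gata2. Ms4a2, the beta chain of the IgE receptor, was at 1.64 times. The 9 measured eosinophil genes ranged from 0.934 times (Siglecf) and 1.10 times (Alox15), through 1.57 to 2.24 times for Ear1, Ear2, Il5ra and Ear6, to 2.98, 3.34 and 3.56 times for the granule genes Prg2, Prg3 and Epx. Elane and Mpo, the primary granule genes of the neutrophil path, were at 1.00 and 0.985 times, and the erythroid and basophil factor Gata1 at 0.971 times. The part of eosinophil or other granulocyte RNA in the higher values was not tested.

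In GMP, LPS was compared with naive at the same population, which addresses whether the basophil and mast cell genes changed 2 days after the bacterial stimulus. Prss34 was at 1199, 1115 and 1054 FPKM in LPS GMP, against 3705, 1986 and 3349 FPKM in naive GMP. Mcpt8 was at 985, 924 and 866 FPKM in LPS GMP, against 2221, 1203 and 2035 FPKM in naive GMP. Gata2 was at 86.6, 79.9 and 70.7 FPKM in LPS GMP, against 195, 138 and 174 FPKM in naive GMP. Every LPS library was below every naive library for these 3 genes, and the 3 LPS libraries lay closer together than the naive ones. Fcer1a was at 67.3, 54.8 and 45.0 FPKM in LPS GMP, against 117, 74.2 and 147 FPKM in naive GMP, again without overlap. Cpa3 was at 543, 458 and 461 FPKM in LPS GMP, against 800, 543 and 706 FPKM in naive GMP, and the groups overlapped by a small margin at 543 FPKM.

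Prss34 fell to 37.3% of its naive mean in LPS GMP, with 1123 ± 72.8 FPKM in LPS GMP against 3013 ± 907 FPKM in naive GMP (SD, n = 3 each; log2 fold change -1.37 ± 0.32, limma adjusted p = 0.00122). Gata2 fell to 46.7%, with 79.1 ± 8.01 FPKM in LPS GMP against 169 ± 28.4 FPKM in naive GMP (-1.08 ± 0.17, limma adjusted p = 2.07e-05). These 2 of the 5 genes were called lower, against 3.04% of all genes called lower, and the median of the 5 was -0.97, against -0.06 for all genes. Mcpt8, at 50.8% of its naive mean (-0.93 ± 0.21, limma adjusted p = 9.94e-04), and Fcer1a, at 49.3% (-0.97 ± 0.25, adjusted p = 0.00262), passed the adjusted p but not the fold threshold. By adjusted p alone 4 of the 5 genes were lower, a share to be read against 29.6% of all genes. Cpa3 was at 71.4% of its naive mean (-0.47 ± 0.29, limma adjusted p = 0.191) and was not called.

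The count of called genes depended on single libraries, while Prss34 was called in each of the 6 fits that left out 1 library. Without naive GMP replicate 2, the lowest naive library, Mcpt8 (-1.20) and Fcer1a (-1.24) were also called and the count was 4 of 5. Without naive GMP replicate 1, Gata2 was at -0.97 and the count was 1 of 5. Fcer1a was at -1.11 and was called without LPS GMP replicate 1. With a replicate block within LPS and within naive, Gata2 was at -0.93 and the count was 1 of 5. With a pseudocount of 0.1 in place of 1, Prss34 was at -1.38 with a limma adjusted p of 0.0587.

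**Figure D3:**
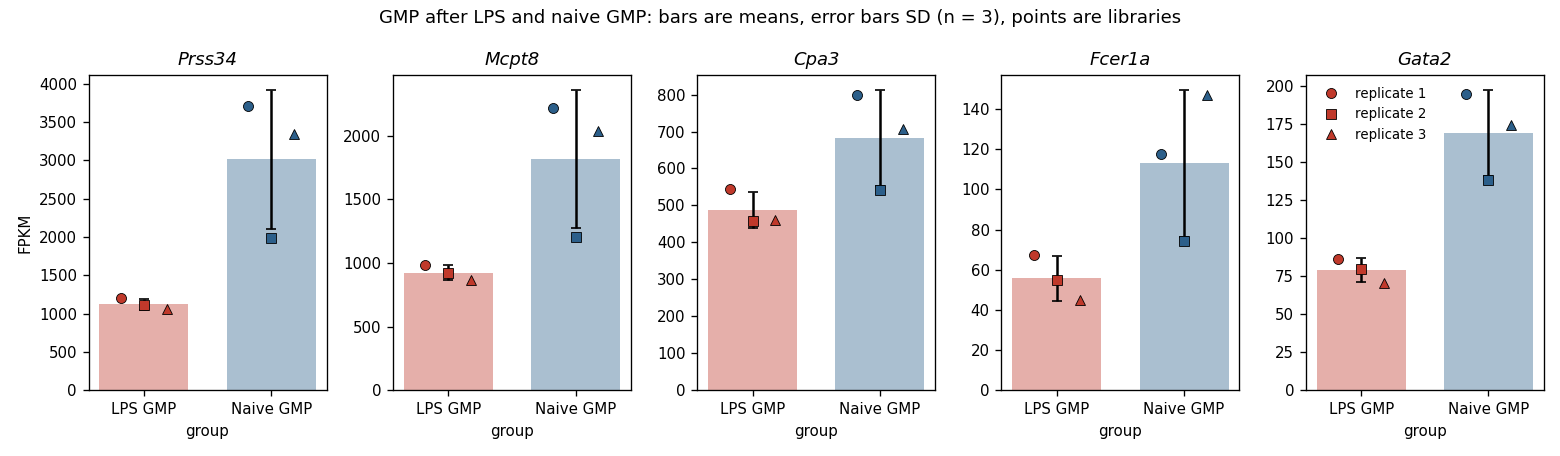
FPKM of each gene in LPS GMP (left) and naive GMP (right), with bars at the mean, error bars of 1 SD (n = 3) and a point for each library. The LPS points lie below all naive points for Prss34, Mcpt8, Fcer1a and Gata2, and replicate 2 is the lowest naive point for all 5 genes.

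The genes were also set against Prss34 within each library, a measure that does not depend on the scaling between libraries. Mcpt8 was 0.822, 0.828 and 0.821 times Prss34 in the LPS GMP libraries, against 0.600, 0.606 and 0.608 times in the naive GMP libraries. Prss34 itself spanned 1986 to 3705 FPKM in the naive libraries, while the Mcpt8 ratios of each group lay close together and the groups did not overlap. Cpa3 was 0.453, 0.410 and 0.437 times Prss34 in LPS GMP, against 0.216, 0.273 and 0.211 times in naive GMP, also without overlap. For both ratios the two-sided exact permutation p was 0.1, the smallest that 3 against 3 libraries allow. The ratios of Fcer1a to Prss34 averaged 0.0493 ± 0.00672 in LPS GMP and 0.0377 ± 0.00611 in naive GMP (SD, n = 3 each; exact permutation p = 0.2). The ratios of Gata2 averaged 0.0703 ± 0.00285 in LPS GMP and 0.0581 ± 0.0101 in naive GMP (exact permutation p = 0.2), and their ranges overlapped. Adjusted over the 4 ratios, the p of each was 0.2.

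**Figure D4:**
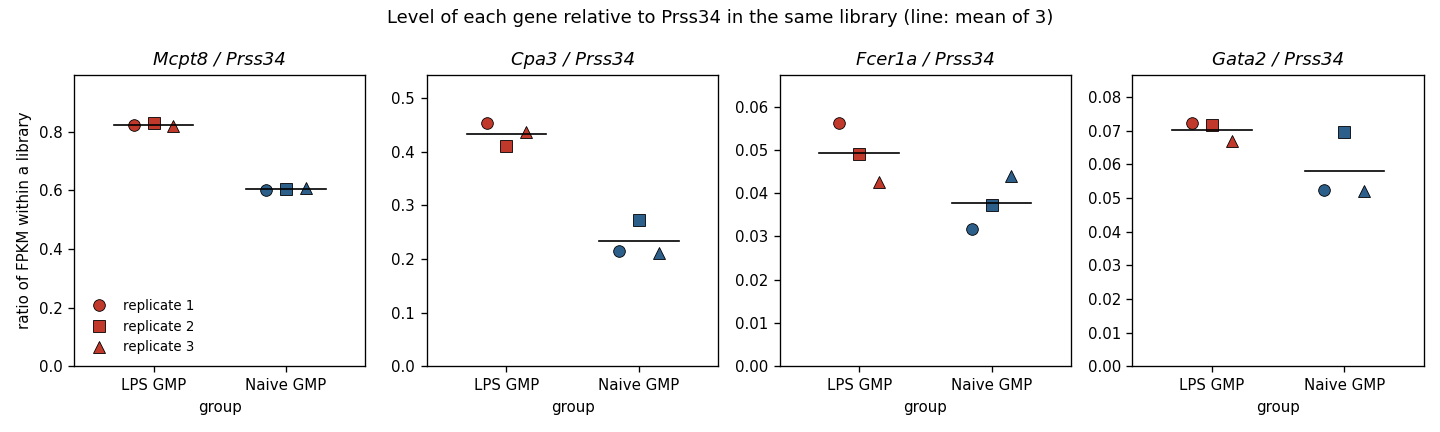
Ratio of each gene's FPKM to that of Prss34 in the same library, for LPS GMP (left) and naive GMP (right), with a point for each library and a line at the mean of 3. The Mcpt8 ratios lie at 0.821 to 0.828 in LPS GMP and at 0.600 to 0.608 in naive GMP.

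In the other 3 populations LPS had few calls among these genes. In LPS proNeu1, Gata2 was at 1.34, 1.31 and 0.738 FPKM, against 2.18, 4.15 and 4.09 FPKM in naive proNeu1, with no overlap. Its log2 fold change was -1.05 ± 0.17 (limma adjusted p = 1.02e-04), and it was the 1 gene of 5 called lower, against 0.439% of all genes. Prss34 was at 7.67, 10.9 and 4.70 FPKM in LPS proNeu1, against 9.30, 9.89 and 31.6 FPKM in naive proNeu1 (-0.88, adjusted p = 0.0452 by limma, not called), and the groups overlapped. Cpa3 was at 3.31, 3.52 and 2.01 FPKM in LPS proNeu1, against 3.45, 4.96 and 11.8 FPKM in naive proNeu1 (-0.84, limma adjusted p = 0.0340). Mcpt8, at 20.8, 20.7 and 18.9 FPKM in LPS proNeu1 against 15.2, 18.3 and 32.1 FPKM in naive proNeu1, had a log2 fold change of -0.05, and Fcer1a of -0.36, neither called. Gata2 was below the fold threshold without naive proNeu1 replicate 2 (-0.93), without naive proNeu1 replicate 3 (-0.94) or without LPS proNeu1 replicate 3 (-0.91), and likewise with a replicate block within LPS and within naive (-0.90), where Prss34 was called (-1.05). Prss34 was called without naive proNeu1 replicate 1 (-1.17), without naive proNeu1 replicate 2 (-1.13) or without LPS proNeu1 replicate 2 (-1.13), and Cpa3 without naive proNeu1 replicate 1 (-1.17). Of the 9 measured eosinophil genes 6 were called lower in LPS proNeu1, with summed levels of 146 to 225 FPKM in LPS proNeu1 against 321 to 830 FPKM in naive proNeu1, and their part in these values was not tested.

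In LPS proNeu2, 0 of the 5 genes were called (background 0.457% lower and 0.536% higher), 0 had an unadjusted limma p under 0.05 and 0 were called by voom on the recovered reads. Mcpt8 was at 14.2, 10.7 and 14.1 FPKM in LPS proNeu2, against 10.2, 10.5 and 10.6 FPKM in naive proNeu2 (0.28), so all 3 LPS libraries were above the naive ones by a small margin. Gata2 was at 0.220, 0.320 and 0.276 FPKM in LPS proNeu2, against 0.547, 0.337 and 0.417 FPKM in naive proNeu2 (-0.17). All 3 LPS libraries were thus below the naive ones for Gata2, at levels near 0. In LPS GMP-MoP, 0 of the 5 were called (background 0.413% lower and 0.72% higher), 2 had an unadjusted limma p under 0.05, both lower, and 0 were called by voom. Those 2 were Mcpt8, at 8.20, 12.7 and 9.50 FPKM in LPS GMP-MoP against 13.4, 14.9 and 16.1 FPKM in naive GMP-MoP (-0.52, adjusted p = 0.0675), and Gata2, at 0.485, 0.722 and 0.510 FPKM in LPS GMP-MoP against 0.719, 0.968 and 1.71 FPKM in naive GMP-MoP (-0.42, adjusted p = 0.0721). Fcer1a had 2 reads in 1 of the 6 GMP-MoP libraries, LPS replicate 3.

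After LPS the 5 genes were again highest in GMP. All 5 were called lower in LPS proNeu1 than in LPS GMP (background 4.54%), in LPS proNeu2 (14.3%) and in LPS GMP-MoP (3.64%), with no overlap between libraries. The log2 fold changes lay between -7.06 and -5.24 in LPS proNeu1, between -7.99 and -5.65 in LPS proNeu2 and between -9.07 and -5.67 in LPS GMP-MoP. Prss34 was at 2.65, 4.21 and 3.52 FPKM in LPS proNeu2 and 0.968, 1.17 and 1.11 FPKM in LPS GMP-MoP, against 1054 FPKM or more in each LPS GMP library. Cpa3 was at 1.54, 1.27 and 1.01 FPKM in LPS proNeu2 and 0.119, 0.313 and 0.276 FPKM in LPS GMP-MoP. The median of the 5 was -5.45 in LPS proNeu1, -6.05 in LPS proNeu2 and -6.40 in LPS GMP-MoP, against -0.14, -0.25 and -0.06 for all genes. These comparisons share the LPS GMP libraries. Fcer1a, which is part of these counts and medians, passed the filter of mean FPKM only through its GMP levels. Its lower calls here were largely fixed by that filter.

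The differences between LPS effects were tested as interaction terms, which share the GMP libraries. The LPS effect on Mcpt8 in proNeu2 exceeded that in GMP by 1.21 ± 0.30 on the log2 scale (limma adjusted p = 0.00331), 1 of 5 genes called higher, against 3.43% of all genes. For GMP-MoP against GMP, Prss34 (1.66 ± 0.46, limma adjusted p = 0.00977) and Fcer1a (1.01 ± 0.36, adjusted p = 0.0393) were called higher, 2 of 5 against 3.28% of all genes. Both genes were at or near 0 in GMP-MoP, where log2(FPKM + 1) leaves little room for a lower value. Neither was called with a pseudocount of 0.1 (limma adjusted p = 0.0852 and 0.238) or by voom on reads (0.259 and 0.691). Of the 12 fits that each left out 1 library, 10 lost the call of Fcer1a, all but those without naive GMP replicate 2 or LPS GMP replicate 1, with values of 0.79 to 1.03 in the 10. For proNeu1 against GMP 0 of 5 were called (background 2.86% higher), with 1 unadjusted limma p under 0.05 and 0 called by voom. Without naive proNeu1 replicate 3, Prss34 (1.04), Mcpt8 (1.18) and Fcer1a (1.08) were called there, and Mcpt8 (1.16) without naive GMP replicate 2. For proNeu2 against GMP, Fcer1a (1.11) and Gata2 (1.04) were also called without naive GMP replicate 2.

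Other genes of the basophil and mast cell programme were followed in lists. Genes of mean FPKM of 1.00 or more were analysed, so a listed gene near 0 outside GMP entered through its GMP level. Il1rl1 is such a gene, with 16.5 FPKM in naive GMP and at most 0.489 FPKM as mean of any non-GMP group. For such genes a lower call outside GMP was largely fixed by the filter, and the list counts are descriptions only. Of 13 genes of the IgE receptor complex and its signalling, 5 were called lower in proNeu1 than in naive GMP and 5 in GMP-MoP, with 3 in MDP and none higher in these 3 populations. Of all genes, 5.42% were called lower and 2.73% higher in MDP, 8.35% lower and 4.09% higher in proNeu1, and 6.53% lower and 2.02% higher in GMP-MoP, and the counts of every list in these populations are to be read against these shares. Ms4a2, the beta chain of the receptor, was at 0.0936 ± 0.0676 FPKM in MDP against 257 ± 48.4 FPKM in naive GMP (SD, n = 3 each; -7.87). The adaptor Lat was at 0.384 FPKM in GMP-MoP and 26.9 FPKM in naive GMP, while Fcer1g, the gamma chain that many Fc receptors share, was not called in these 3. The list medians were -0.07 in MDP, -0.37 in proNeu1 and -0.55 in GMP-MoP, against 0.02, -0.14 and -0.04 for all genes.

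Of 16 other protease and granule genes 7 were measured, and the mast cell proteases of the list (Mcpt1, Mcpt2, Mcpt4, Mcpt9, Cma1 and the tryptases) are not analysed here. All 7 were called lower in MDP, 3 were lower and 1 higher in proNeu1, and 5 were lower in GMP-MoP, with medians of -4.46, -0.38 and -1.97 against 0.02, -0.14 and -0.04. Hdc, the enzyme that makes histamine, was at 4.09 ± 0.329 FPKM in MDP and 80.2 ± 6.77 FPKM in GMP-MoP, against 177 ± 5.01 FPKM in naive GMP. Slc18a2, which loads amines into granules, was at 1.34 FPKM in MDP and 1.43 FPKM in GMP-MoP, against 50.9 FPKM in naive GMP. The gene called higher in proNeu1 was Ctsg (cathepsin G), which neutrophil precursors also express.

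Of 15 transcription factors 7 were called lower in MDP, 8 in proNeu1 and 8 in GMP-MoP and none higher, with medians of -0.82, -1.42 and -1.20 against 0.02, -0.14 and -0.04 for all genes, as for the lists that follow. Gata1 was at 0.461 FPKM in MDP, 1.49 FPKM in proNeu1 and 0.0646 FPKM in GMP-MoP, against 33.2 ± 1.02 FPKM in naive GMP. Its cofactor Zfpm1 was at 6.12 FPKM in MDP, 2.32 FPKM in proNeu1 and 1.02 FPKM in GMP-MoP, against 44.0 FPKM in naive GMP. Of 13 measured receptors of 17 listed, 5 were lower and 2 higher in MDP, 6 lower and 1 higher in proNeu1 and 7 lower and 1 higher in GMP-MoP, with medians of -0.72, -0.87 and -1.08. Il1rl1, the IL-33 receptor, was at 0.119 FPKM in MDP, 0.489 FPKM in proNeu1 and 0.00693 FPKM in GMP-MoP, against 16.5 ± 2.75 FPKM in naive GMP. The 5 measured lipid mediator enzymes of 8 gave 4 lower in MDP, 2 lower and 1 higher in proNeu1 and 2 lower and 1 higher in GMP-MoP, and the 4 measured cytokines of 8 gave 1 lower in MDP and 1 lower with 1 higher in the other 2. Gata1 and Zfpm1, and Itga2b among the receptors, are also on the erythroid and megakaryocyte list, on which 12 of 17 measured genes were lower in MDP.

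LPS GMP was set against naive GMP over the same lists, where 3.04% of all genes were called lower and 0.914% higher and the median of all genes was -0.06. Of the 13 IgE receptor genes 3 were called lower than in naive GMP, Lat (-1.39), Fyn (-1.32) and Lat2 (-1.07), with a list median of -0.50 against -0.06 for all genes. Of the 7 granule genes 2 were lower, Gzmb (-2.41) and Slc18a2 (-1.10), and Ctsg was higher (1.02), with a median of -0.49. Of the 15 factors 4 were lower, Zfpm1 (-2.48), Gfi1b (-1.53), Gata1 (-1.46) and Meis1 (-1.41), with a median of -0.47. Gata1 was at 11.5 ± 0.535 FPKM in LPS GMP against 33.2 ± 1.02 FPKM in naive GMP. Of the 13 receptors 3 were lower, Itga2b (-1.79), Itgb7 (-1.74) and Cd9 (-1.50), with a median of -0.40. The 5 lipid mediator enzymes ran from Alox5 at -0.97 to Ptgs1 at 0.20 (median 0.02) and the 4 cytokines from Csf1 at -0.74 to Ccl9 at 0.25 (median -0.28), all short of a call by limma.

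Markers of other cell types were also lower in sum in LPS GMP than in naive GMP. Of 9 measured eosinophil genes of 10 listed, 6 were called lower in LPS GMP, against 3.04% of all genes for this and the next 3 lists, and their summed level was 4925 to 6378 FPKM in LPS GMP against 11317 to 15440 FPKM in naive GMP. Among the naive GMP libraries, replicate 2 was highest for Prg2, Prg3, Epx, Ear1, Ear2, Ear6 and Il5ra, unlike for the 5 genes. Epx was at 866, 1553 and 1017 FPKM there. Siglecf and Alox15 were lowest in replicate 2. Of 17 measured erythroid and megakaryocyte genes 13 were lower, with sums of 105 to 273 FPKM in LPS GMP against 633 to 743 FPKM in naive GMP. Plasma and B cell genes summed to 251 to 611 FPKM in LPS GMP against 926 to 1603 FPKM in naive GMP, with 4 of 6 called lower, and macrophage genes to 30.6 to 34.5 FPKM in LPS GMP against 77.2 to 102 FPKM in naive GMP, with 6 of 8 called lower. Every gene of these 4 lists had reads in both GMP groups. The part of these cells in the LPS differences of the 5 genes was not tested.

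**Figure D5:**
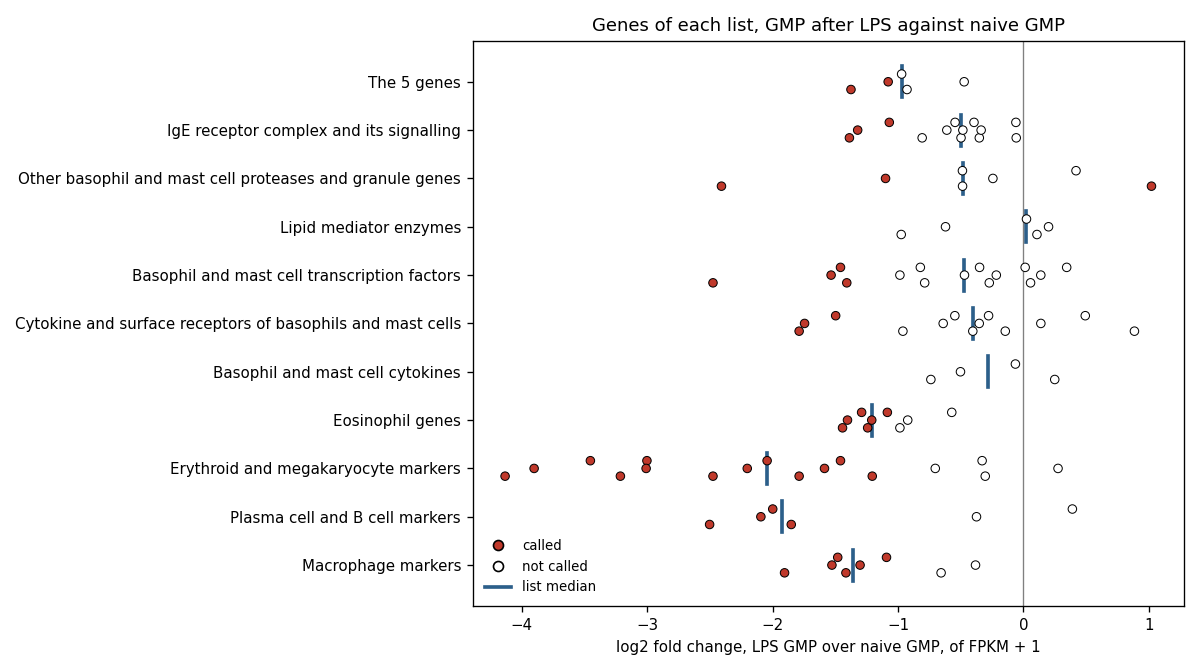
Log2 fold change of FPKM + 1 in LPS GMP over naive GMP for the 5 genes and for each gene of 10 lists, with called genes filled and a bar at the list median. The 5 genes lie between -1.37 and -0.47, the eosinophil list has its median at -1.21 and the erythroid and megakaryocyte list at -2.04.

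The genes whose pattern was most like each of the 5 were found by Pearson correlation of log2(FPKM + 1) over the 10 group means, among 7150 genes. The 10 points share their libraries' depth, and both GMP groups stand far from the other 8, so the values are a description only. For Prss34 these were Ms4a2 (0.993), the eosinophil granule genes Prg3 and Epx, the amino acid transporter Slc7a8 and Slc18a2. For Mcpt8 they were Rnase12 (0.996), Il1rl1, Csrp3, Cyp11a1 and Slc45a3, and for Fcer1a they were Il1rl1 (0.999), Slc45a3, Rnase12, Csrp3 and Fgf3. Mcpt8 and Fcer1a thus shared 4 of their 5 genes, and correlated with each other at 0.996. For Cpa3 they were Itga2b (0.987), Tfr2, Mir7007, Il1rl1 and Sdsl, of which Mir7007 lies within Cpa3. For Gata2 they were Slc22a3 (0.990), Itga2b, Mdga1, Trbv13-2 and Ikzf2. Itga2b, the CD41 chain of the platelet integrin, was at 47.6 FPKM in LPS GMP, 167 FPKM in naive GMP and at most 3.26 FPKM as the mean of any other group. The lowest correlation among the 5 genes was between Prss34 and Gata2 (0.889).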

How the data were processed

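Progenitors sorted from the marrow of WT mice were sequenced as RNA in 10 groups of 3 libraries, and 30 columns of 1 table were used. The authors deposited FPKM values per gene. Per the submitters' processing notes, Trimmomatic 0.38.0, STAR 2.7.8 and featureCounts 2.0.1 were used with GRCm38 (mm10). The annotation release, the strand setting and whether reads or fragments were counted are not given in the sources used here. The 11383 genes had mean FPKM of 1.00 or more, so genes below that are not analysed here. Fcer1a, at a mean of 0.938 FPKM or less in each group outside GMP, passed only through its GMP levels. The lower calls of Fcer1a outside GMP were therefore largely fixed by this filter. Whole reads were recovered from the deposited FPKM for all 11383 genes, and the table held 98.98% to 99.7% of the assigned reads. With 3 libraries a group and a median of 28.6 M reads, replicate spread limits the precision of high genes and counting that of genes near 0.

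log2(FPKM + 1) was fitted with limma 3.58.1 (R 4.3.3, trended variance) over all 30 libraries, and p-values were adjusted by Benjamini-Hochberg over 11383 genes. A call needed an adjusted p under 0.05 and a log2 fold change of 1 or more in either direction. With the pseudocount of 1, fold changes of low genes are understated. The titles call the replicates biological without saying whether each is 1 mouse or a pool, so p-values measure the spread between these libraries. Samples were grouped by their group label, and the 19 comparisons were each population against GMP, neighbouring populations, LPS against naive and differences between LPS effects.

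The text names the 5 genes throughout, up to 4 called genes of each list with the largest changes in a comparison, list members whose role is explained, and for each of the 5 the 5 genes of highest correlation among those reaching a group mean of 10 FPKM, leaving out predicted genes and immunoglobulin segments. The 5 genes and the lists were chosen with earlier results of these data known. Alternatives were a pseudocount of 0.1, median-of-ratios scaling, genes of mean FPKM of at least 5, the compared groups alone, a replicate block, the block within LPS and within naive, voom on recovered reads and leaving out each library. Same-numbered LPS libraries deviated together in LPS proNeu1, proNeu2 and GMP-MoP against LPS GMP (correlations of 0.182 to 0.404 in these 3 pairs of groups), and in no other of 13 pairs of groups were all correlations over 0.1. Naive GMP-MoP against naive proNeu1 came close to this cut, with correlations of 0.186, 0.375 and 0.0973.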

Additional observations from a re-analysis of the deposited data

Results flagged for a closer look

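A test of the difference between LPS effects singled out 3 values. The LPS effect on Mcpt8 in proNeu2 exceeded the LPS effect in GMP by 1.21 on the log2 scale. The LPS effect on Prss34 in GMP-MoP exceeded the one in GMP by 1.66, and that on Fcer1a by 1.01. Fcer1a had 0 reads in all naive GMP-MoP libraries and 2 reads in the LPS ones, and Prss34 was near 1 FPKM in both, so a fall of the size seen in GMP could not appear there on log2(FPKM + 1). With a pseudocount of 0.1 the differences were 2.01 for Prss34 and 1.27 for Fcer1a, and by voom 2.11 and 1.62, none of them called. The part of this floor in the differences was not tested.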

How the results depend on the processing

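In LPS GMP the count of the 5 genes called was 2, 1 with a pseudocount of 0.1, and 1 to 4 when a library was left out. The replicate block changed no count of the 5 genes in any comparison. With the replicate block within LPS and within naive, the count in LPS GMP was 1 (Gata2 at -0.93), and in LPS proNeu1 Gata2 was at -0.90 and Prss34 at -1.05. In LPS proNeu1 the count was 1, and 0 to 3 without 1 library. For the difference between LPS effects in proNeu1 and GMP it was 0, and 0 to 3 without 1 library, and in proNeu2 and GMP it was 1, and 1 to 3. In GMP-MoP and GMP it was 2, with 0 at a pseudocount of 0.1, 1 with median-of-ratios scaling, 0 by voom, and 1 to 2 without 1 library, with 1 in 10 of those 12 fits. Prss34 in proNeu2 against proNeu1 was not called with a pseudocount of 0.1 (limma adjusted p = 0.0669) or with the compared groups alone (0.0773), and Mcpt8 was called there without naive proNeu1 replicate 1 (-1.14) or 2 (-1.02). Fcer1a in GMP-MoP against proNeu1 was called with a pseudocount of 0.1 (-2.72) and by voom (-4.74), and Prss34 in GMP-MoP against MDP with a pseudocount of 0.1 (2.22). The counts of the 5 genes in all other comparisons stayed within 1.5 times under each alternative.

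Some values of genes not called changed sign. Prss34 in cMoP against MDP was at 0.05, and at -0.060 by voom and -0.14 to 0.19 without 1 library. Mcpt8 in LPS proNeu1 was at -0.05, and at 0.0037 with median-of-ratios scaling, 0.0027 by voom and -0.26 to 0.26 without 1 library, and Fcer1a there at -0.36, and at -0.63 to 0.11 without 1 library. For LPS effects in proNeu1 and GMP, Cpa3 was at -0.37 (-0.70 to 0.065 without 1 library) and Gata2 at 0.03 (-0.44 with a pseudocount of 0.1, -0.45 by voom, -0.20 to 0.17 without 1 library). For GMP-MoP and GMP, Cpa3 was at 0.06 (-0.62 with a pseudocount of 0.1, -0.95 by voom, -0.14 to 0.24 without 1 library). The causes were not tested. Median-of-ratios scaling moved the median of all genes by 0.124 in proNeu1 and 0.208 in proNeu2 against naive GMP, and by 0.133 and 0.227 in the same populations against LPS GMP. Of 266 counts of genes called over all genes, 60 moved by over 1.5 times, 23 of them with genes of mean FPKM of at least 5 (8066 genes), 17 with a pseudocount of 0.1 and 17 by voom. In LPS GMP the count of genes called lower was 346, with 520, 123 and 575 under a pseudocount of 0.1, mean FPKM of at least 5 and voom.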

Other observations

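The eosinophil list, which shares no gene with the 5, had 9 of 9 measured genes called lower by limma in MDP, in cMoP and in GMP-MoP than in naive GMP. In proNeu1 7 of the 9 and in proNeu2 8 of the 9 were lower. Its median was -8.70 in MDP, -8.33 in cMoP, -7.41 in GMP-MoP, -3.34 in proNeu1 and -4.34 in proNeu2. Il5ra of this list, at 10.1 FPKM in naive GMP and 0 FPKM in cMoP, passed the filter of mean FPKM through its GMP levels. The lower calls of Il5ra were largely fixed by that filter. In cMoP the shared receptor chain Fcer1g was called higher than in naive GMP, at 288 FPKM in cMoP against 117 FPKM in naive GMP (1.32).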
